A study of Mus musculus with 61 samples.

Results

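The AP-1 factor genes encode the basic leucine zipper proteins that pair to form activator protein 1, and 10 of them were described here: Fos, Fosb, Fosl1, Fosl2, Jun, Junb, Jund, Batf, Batf3 and Atf3. They were chosen by gene symbol, without use of any measured value. In the table of H3K27ac tags in microglia, 278 of 133129 windows of 1 kb had one of these genes as the nearest gene, and in the RefSeq annotation the members were 10 of 21887 protein-coding genes. Acetylation of lysine 27 of histone H3 (H3K27ac) marks active promoters and enhancers, and it was measured by chromatin immunoprecipitation and sequencing (ChIP–seq). The windows were centred on sites of open chromatin, and 118 separate elements remained after overlapping windows were merged.

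The groups were wild type mice (WT) and mice homozygous for a CRISPR deletion of the enhancer cluster that drives Sall1 in microglia (EKO), a germline deletion that was present in every cell of the animal. Sall1 encodes SALL1, a zinc-finger transcription factor. Both groups were of the strain labelled C57/Bl6 and were untreated male animals of 8 to 12 weeks. Microglia were sorted as CD11b+ CD45low CX3CR1+ cells, with 2 libraries for each genotype. Nuclei were sorted from brain on PU.1 (microglia), OLIG2 (the oligodendrocyte lineage) or NEUN (neurons), giving 12 libraries, 2 for each genotype and cell type. Lists of reproducible peaks gave the binding of SALL1, of SMAD4, a transducer of TGF-β signals, and of the acetyltransferase p300 in WT microglia or PU.1 nuclei. Further lists gave SALL1 in EKO mice and in the wild-derived strains labelled PWK and Spret, and SMAD4 in libraries labelled mutant. The titles and the file of those last libraries name different mutations, an induced Smad4 deletion and EKO, so they are called mutant here. Their input libraries also name EKO, and the paper describes SMAD4 ChIP–seq in EKO microglia. Nothing in the labels says that replicate libraries came from separate animals, so p-values measure the spread between these libraries.

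The targeted gene followed the labels. All 29 tested Sall1 windows lost H3K27ac in EKO microglia, and in PU.1 nuclei the summed Sall1 signal was 1122.7 and 5794.6 in WT and 0 in both EKO libraries. Depth in microglia was 9963454 to 24357795 tags, and values are given as deposited, in tags scaled to a depth of 10000000. EKO library 1 stood apart: the summed window tags were 97.2% of its depth, against 33.2 to 54.9% in the other libraries, and its median over tested windows was 84.3 scaled tags against 29.9 to 46.4. Of its windows with few tags, 69.3% held a multiple of 3, against 30.7 to 41.5% elsewhere. The comparison of microglia was therefore made after quantile normalization, and normalised values are named as such. Among the nuclei, PU1 WT library 1 stood apart with 11149 called regions against 25990 to 36057 in the other PU1 libraries. All 6 microglia markers carried signal in every PU1 library, all 6 neuron markers in every NeuN library and all 6 oligodendrocyte markers in every Olig2 library. Other markers were not absent. Oligodendrocyte markers summed to 2255 to 2648 in NeuN libraries, against 21554 to 37376 in Olig2 libraries. Microglia markers summed to 663 to 998 in Olig2 libraries, against 9148 to 54434 in PU1 libraries. Astrocyte markers summed to 444 to 3122 in PU1 libraries and 1782 to 2218 in Olig2 libraries. In PU1 libraries this signal came from Slc1a3, joined by Aldh1l1 in EKO library 1, and Gfap, Aqp4 and Gja1 had no region. Each Olig2 library had a region at 4 of the 5 astrocyte genes.

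AP-1 proteins bind DNA as dimers, with members of the JUN family pairing with each other or with FOS, BATF or ATF proteins. Fos, Fosb, Jun, Junb and Atf3 are immediate early genes, switched on within minutes by growth factors, synaptic activity or tissue dissociation through SRF, CREB and the MAP kinases. In macrophages AP-1 acts with the lineage factor PU.1 to open enhancers, and BATF and BATF3 direct the development of lymphocytes and of dendritic cells.

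The stretches below show the elements on which the results turn, printed on the plus strand of GRCm38.p6 (mm10, RefSeq) with the searched words in capitals. The words, searched on both strands, were TGANTCA (AP-1), TGACGTCA (CRE), GAGGAAGT (PU.1), GTCTAGAC (SMAD), TAAAAATA (MEF2) and the CArG box of SRF. The first pair holds the CArG boxes upstream of Fos and Fosb, at chr12:85473521-85473650 and chr7:19310248-19310377, shown because SRF acts there when these genes are induced. The Fos distal pair lies about 59 kb downstream of the start, inside 2 windows that gained H3K27ac in EKO: a SALL1 peak at chr12:85532603-85532811 with a PU.1 word on the minus strand, and a stretch with 2 AP-1 words at chr12:85533342-85533567. The Fosl2 stretch, chr5:32139224-32139374, is the middle of the window with the largest gain, in intron 1, and held none of the words. The Fosb stretch, chr7:19318763-19318890, lies in the upstream element with the largest loss, and the Batf3 stretch, chr1:191118613-191118836, in a downstream element that lost H3K27ac. The Junb stretch, chr8:84982212-84982455, is a p300 peak in a window that also held a WT SMAD4 peak.
Fos promoter CArG box: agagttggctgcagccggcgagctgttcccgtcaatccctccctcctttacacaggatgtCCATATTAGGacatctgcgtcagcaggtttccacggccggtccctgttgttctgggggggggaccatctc
Fosb promoter CArG box: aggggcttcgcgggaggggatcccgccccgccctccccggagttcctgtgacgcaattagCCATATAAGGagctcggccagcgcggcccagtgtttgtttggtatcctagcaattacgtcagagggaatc
Fos distal SALL1 peak: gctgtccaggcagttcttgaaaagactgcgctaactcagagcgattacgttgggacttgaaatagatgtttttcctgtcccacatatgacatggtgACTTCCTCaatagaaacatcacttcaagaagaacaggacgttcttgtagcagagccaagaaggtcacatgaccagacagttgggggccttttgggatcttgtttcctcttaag
Fos distal AP-1 pair: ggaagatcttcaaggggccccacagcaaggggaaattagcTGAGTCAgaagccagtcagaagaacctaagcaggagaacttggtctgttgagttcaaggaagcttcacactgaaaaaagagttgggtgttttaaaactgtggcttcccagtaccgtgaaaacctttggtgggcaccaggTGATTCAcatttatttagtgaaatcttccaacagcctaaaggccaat
Fosl2 intron 1: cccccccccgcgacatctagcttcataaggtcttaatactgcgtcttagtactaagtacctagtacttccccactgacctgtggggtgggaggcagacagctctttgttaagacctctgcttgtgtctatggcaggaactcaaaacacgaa
Fosb upstream PU.1: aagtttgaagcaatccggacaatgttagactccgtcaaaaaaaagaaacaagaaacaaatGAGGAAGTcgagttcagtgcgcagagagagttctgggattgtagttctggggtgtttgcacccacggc
Batf3 downstream: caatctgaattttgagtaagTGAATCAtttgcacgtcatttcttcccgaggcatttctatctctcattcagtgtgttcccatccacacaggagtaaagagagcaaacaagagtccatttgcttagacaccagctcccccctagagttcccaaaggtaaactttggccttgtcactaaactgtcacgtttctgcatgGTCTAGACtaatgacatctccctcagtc
Junb upstream p300 peak: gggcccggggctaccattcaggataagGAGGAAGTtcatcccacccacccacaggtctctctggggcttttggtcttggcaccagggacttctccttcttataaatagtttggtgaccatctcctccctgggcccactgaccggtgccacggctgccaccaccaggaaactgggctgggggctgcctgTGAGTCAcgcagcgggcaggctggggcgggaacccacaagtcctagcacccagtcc

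Beyond these stretches, the AP-1 word was present in 81 of the 278 windows (29.1%), against 26.0% of all windows. The CArG box was present in 6.12% against 4.88%, the PU.1 word in 13.3% against 14.6% and the MEF2 word in 8.99% against 12.8%. The CRE word was in 0.719% against 1.57% and the SMAD word in 0.719% against 1.07%. Per gene, AP-1 words numbered 20 in the 74 windows of Jun (0.27 per window), 12 in 26 windows of Fosl2 (0.46) and 11 in 26 windows of Fosb (0.42). They were fewer per window at Jund (1 in 19 windows), Junb (2 in 16) and Batf (2 in 14), while Fosl1 had 2 in its 2 windows. Fos had 6 CArG boxes in 49 windows. RefSeq promoters were found for 9 members, all but Fosl1. In the 250 bases before the start, the only word found among them was the MEF2 word at Jun. In 27025 promoters of that length the AP-1 word was held by 6.87%, the CArG box by 1.40%, the MEF2 word by 2.48%, the PU.1 word by 2.44%, the CRE word by 1.62% and the SMAD word by 0.174%. The Fos and Fosb boxes printed above lie just outside that stretch, 305 and 267 bases from the start.

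To ask how loss of SALL1 was accompanied by change in acetylation at AP-1 genes, tags were compared between EKO and WT microglia. Of the 278 windows, 144 passed the filter of a mean above 16 scaled tags, and 22 were called at an adjusted p-value below 0.05 and a fold above 2 (limma). Gains were called in 13 windows (9.03%), against 8.68% of all tested windows, and losses in 9 windows (6.25%), against 7.56%. The AP-1 genes as a whole were thus near the background, but the calls were divided by gene. Gains were at Fosl2 (6 windows), Fos (4 windows), Batf (2 windows) and Jun (1 window), and losses at Fosb (4 windows), Batf3 (3 windows), Fos (1 window) and Jun (1 window). The single losses at Fos and Jun were not called when edgeR or DESeq2 was used in place of limma. Junb, Jund and Atf3 had no call, and neither window of Fosl1 passed the filter. The gained windows formed 6 elements and the lost windows 7, since neighbouring windows share tags. Of the called windows, 7 gained and 3 lost ones had a mean at or under 16 in the lower genotype and so passed the filter only through the genotype in which they were high (61.1% of all gained and 35.7% of all lost windows).

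**Figure D1:**
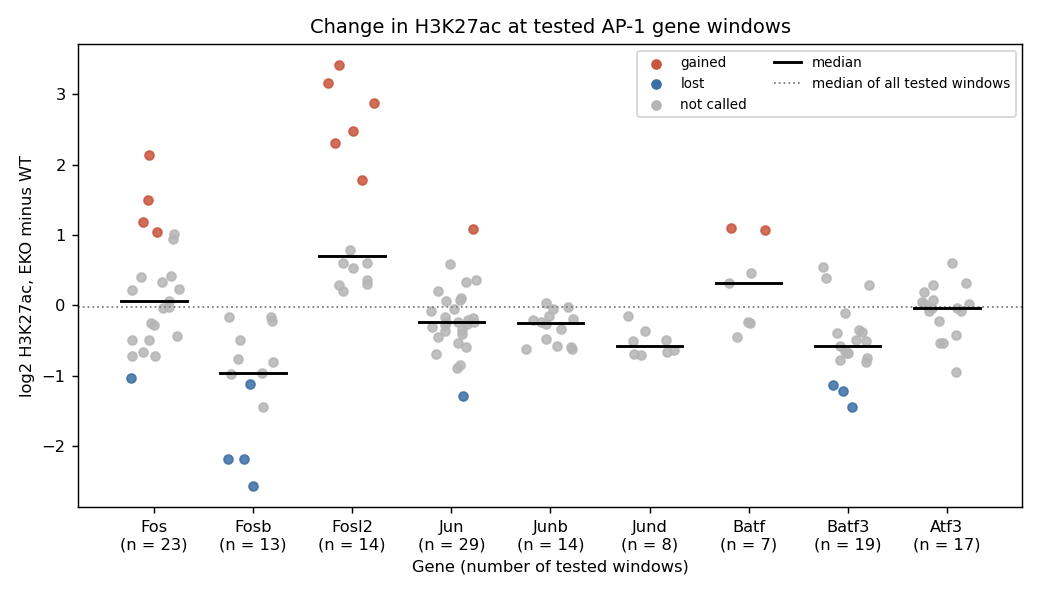
Log2 difference in H3K27ac (EKO minus WT, quantile-normalised) for each of the 144 tested AP-1 gene windows, 1 point per window, by gene, with black bars for the gene medians and a dotted line for the median of all tested windows (−0.03). Gained windows (red) sit at Fosl2, Fos, Batf and Jun and lost windows (blue) at Fosb, Batf3, Fos and Jun.

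The median log2 difference over tested windows was −0.23 for the AP-1 genes and −0.03 for all windows. By gene it ran from −0.96 at Fosb, −0.58 at Batf3 and −0.57 at Jund, through −0.25 at Junb, −0.23 at Jun, −0.04 at Atf3 and 0.07 at Fos, to 0.32 at Batf and 0.70 at Fosl2. The genes also differed in level: the median normalised window was highest at Junb (348 tags) and Jund (168 tags) and lowest at Fosb (30.1 tags) and Fosl2 (28.9 tags), against 42.5 tags over all windows. The most acetylated genes were therefore among those with no 2-fold change.

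Fos, the founding member of the family and a classic marker of recent stimulation, was divided along its locus. At its promoter the 2 WT libraries had 91.6 and 57.7 tags and the EKO libraries 258 and 46.3, so that the groups overlapped, and the difference was not called (log2 0.33 ± 0.25 (SE), adjusted p = 0.389, limma). In the intergenic element 58.8 kb downstream (chr12:85532185-85533185) the values were 301 and 186 in WT and 1109 and 315 in EKO. Both EKO libraries lay above both WT libraries there, and the window gained 1.04 ± 0.12 on the log2 scale (adjusted p = 3.85e-06, limma). In the overlapping window 59.4 kb downstream (chr12:85532825-85533825), with 341 and 160 tags in WT and 1256 and 333 in EKO, the deposited values overlapped. After normalization they were 302 and 215 against 647 and 526 and did not overlap, for a gain of 1.19 ± 0.15 (adjusted p = 7.06e-06, limma).

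Upstream of Fos, the window 4.57 kb from the start (chr12:85468816-85469816) had 13.1 and 7.96 tags in WT and 105 and 41.8 in EKO. It gained 2.14 ± 0.35 on the log2 scale (adjusted p = 0.000154, limma) and passed the filter only through the EKO libraries. The window it overlaps, 5.02 kb upstream, had 27.5 and 17.9 tags in WT and 135 and 47.0 in EKO, a gain of 1.49 ± 0.29 (adjusted p = 0.000736, limma). In both windows the groups did not overlap. The one Fos window that lost H3K27ac lay 1.61 kb upstream, with 39.0 and 33.8 tags in WT and 43.2 and 11.95 in EKO. Its deposited values overlapped, its normalised values did not (38.6 and 43.0 against 22.7 and 16.7), and it was called at log2 −1.03 ± 0.36 (adjusted p = 0.0402, limma). This loss was not called with edgeR, with DESeq2, without a filter or with a pseudocount of 8.

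**Figure D2:**
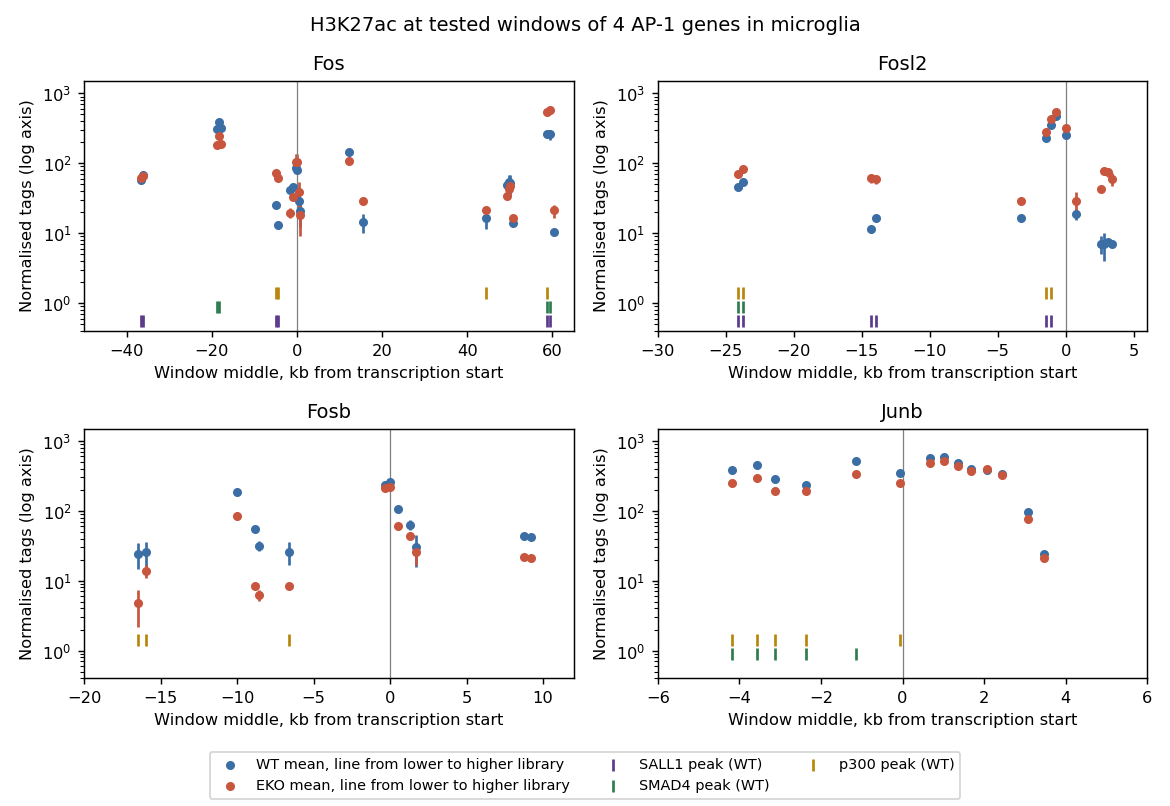
Quantile-normalised H3K27ac tags (log axis) against the distance of the window middle from the transcription start, in kb, for the tested windows of Fos, Fosl2, Fosb and Junb, with points for the mean of the 2 WT (blue) and the 2 EKO (red) libraries, lines from the lower to the higher library, and ticks at the bottom for windows with a SALL1, SMAD4 or p300 peak in WT. EKO lies above WT at the Fos elements 59 kb downstream and 5 kb upstream and in Fosl2 intron 1, and below WT at the distal Fosb windows, which carry no SALL1 tick.

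Fosl2 encodes FRA-2, a FOS-family protein with slower induction than FOS. Its promoter window had 269 and 195 tags in WT and 617 and 197 in EKO, and with normalised values of 238 and 263 against 320 and 320 it was not called (log2 0.35 ± 0.14, adjusted p = 0.0641, limma). The gains lay in intron 1 and about 14 kb upstream. The window 2.83 kb into the gene (chr5:32138799-32139799) had 2.87 and 6.97 tags in WT and 156 and 47.0 in EKO, a gain of 3.42 ± 0.43 on the log2 scale or 10.7-fold (adjusted p = 7.12e-06, limma). Its neighbour at 3.12 kb had 5.34 and 4.98 tags in WT and 162 and 41.1 in EKO, a gain of 3.16 ± 0.38 (adjusted p = 4.85e-06, limma). At 3.43 kb the values were 6.16 and 3.98 against 135 and 30.6, a gain of 2.88 ± 0.43 (adjusted p = 4.73e-05, limma). No WT library reached the lower EKO library in these windows, which belong to 1 element and were near the bottom of the WT libraries. The window 14.3 kb upstream (chr5:32121631-32122631) had 10.7 and 6.97 tags in WT and 132 and 33.6 in EKO, a gain of 2.31 ± 0.37 (adjusted p = 0.00011, limma). The other 2 called Fosl2 windows overlap these elements and gained 2.48 and 1.78 on the log2 scale. All 6 passed the filter only through the EKO libraries.

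Fosb, an activity-induced gene known for its long-lived product in neurons, went the other way. Its promoter window had 318 and 168 tags in WT and 440 and 126 in EKO, overlapping groups with a log2 difference of −0.23 ± 0.15 (adjusted p = 0.317, limma). All 4 called windows were intergenic and upstream, and all lost H3K27ac. The strongest loss was 8.81 kb upstream (chr7:19318356-19319356), where WT had 51.3 and 46.8 tags and EKO 20.1 and 6.72, a difference of −2.57 ± 0.40 (adjusted p = 9.04e-05, limma). Its overlapping neighbour 8.56 kb upstream had 25.9 and 28.9 tags in WT and 17.1 and 4.48 in EKO, a difference of −2.19 ± 0.53 (adjusted p = 0.00473, limma). In both windows every WT library lay above every EKO library as deposited. At 10.0 kb upstream the values were 230 and 126 in WT and 179 and 47.8 in EKO, which overlapped as deposited and did not after normalization (203 and 167 against 95.0 and 75.3), for a difference of −1.12 on the log2 scale (adjusted p = 0.000304, limma). The window 16.5 kb upstream, with 34.1 and 10.95 tags in WT and 17.1 and 2.24 in EKO, also overlapped as deposited and differed by −2.19 (adjusted p = 0.031, limma). These 3 windows, all but the one 10.0 kb upstream, passed the filter only through the WT libraries.

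Fosl1 encodes FRA-1, an invasion-associated FOS protein. Its window nearest to the start had 0 and 3.98 tags in WT and 3.01 and 1.49 in EKO, too few to test.

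Jun, the main partner of the FOS proteins, had the widest set of windows, from 251 kb upstream to 6.90 kb downstream, and 1 gain and 1 loss among 29 tested. Its promoter was among the most acetylated windows and did not differ by the test, with 577 and 438 tags in WT and 998 and 292 in EKO (log2 −0.18 ± 0.11, adjusted p = 0.255, limma). A window 163 kb upstream (chr4:95214901-95215901) had 31.6 and 29.9 tags in WT and 124.5 and 53.0 in EKO, with no overlap, and gained 1.09 ± 0.27 on the log2 scale (adjusted p = 0.00598, limma). The window 2.36 kb upstream had 24.6 and 26.9 tags in WT and 26.1 and 8.21 in EKO. These deposited values overlapped, and the normalised difference was −1.29 ± 0.45 (adjusted p = 0.0403, limma). This loss was not called with edgeR, with DESeq2, without a filter or with a pseudocount of 8.

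Junb, which restrains JUN in many settings, was the most acetylated member and had small differences, from −0.62 to 0.03 on the log2 scale. At its promoter WT had 378 and 273 tags and EKO 487 and 155, which overlapped, and the normalised values of 335 and 367 against 252 and 251 gave a log2 difference of −0.48 ± 0.13 (adjusted p = 0.012, limma). The smallest p-value was at the window 3.58 kb upstream (chr8:84981827-84982827), with 487 and 351 tags in WT and 571 and 181 in EKO and a normalised difference of −0.62 ± 0.12 (adjusted p = 0.000929, limma). Of 14 tested Junb windows 5 had an adjusted p-value below 0.05 (limma), where 24.2% of all tested windows did, and none of them reached 2-fold. Jund, the most evenly expressed of the JUN genes, had such differences in 4 of 8 windows, again under 2-fold. Over its single exon, 1.98 kb from the start (chr8:70699218-70700218), WT had 922 and 684 tags and EKO 1257 and 387, and the normalised values of 889 and 891 against 647 and 603 gave −0.51 ± 0.094 (adjusted p = 0.000436, limma). Its 5′ UTR window had 271 and 231 tags in WT and 307 and 109 in EKO, a normalised difference of −0.69 ± 0.16 (adjusted p = 0.00367, limma).

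Batf and Batf3, small AP-1 proteins without an activation domain that act with IRF4 and IRF8, had called windows in opposite directions. The Batf promoter window (chr12:85686175-85687175) had 23.0 and 17.9 tags in WT and 90.3 and 33.6 in EKO, with no overlap, a gain of 1.07 ± 0.32 on the log2 scale (adjusted p = 0.0178, limma). Its neighbour in intron 1 had 20.1 and 14.9 tags in WT and 79.3 and 30.6 in EKO and gained 1.11 ± 0.34 (adjusted p = 0.0212, limma). Both had few tags, and the most acetylated Batf windows, 18.0 to 19.0 kb downstream, were lower in EKO on average. In the one 18.7 kb downstream the normalised values were 245 and 227 in WT and 168 and 176 in EKO, a difference of −0.45 ± 0.15 that was under 2-fold (adjusted p = 0.0373, limma). Batf was the only member whose window nearest to the start was called. That gain and the one in intron 1 were also called with edgeR. They were not called on the deposited values, with DESeq2, without a filter or with a pseudocount of 8. The Batf3 window nearest to the start was not called (73.5 and 40.8 tags in WT, 59.2 and 32.1 in EKO, log2 −0.58 ± 0.29, adjusted p = 0.167, limma), but the overlapping promoter window 0.515 kb upstream (chr1:191097399-191098399) was. It had 74.7 and 48.8 tags in WT and 47.2 and 23.2 in EKO, with no overlap, and a difference of −1.14 on the log2 scale (adjusted p = 0.00681, limma). In the intergenic element 21.1 kb downstream of the Batf3 start (chr1:191119022-191120022) WT had 60.4 and 38.8 tags and EKO 29.1 and 17.2, a difference of −1.44 ± 0.35 (adjusted p = 0.00475, limma). The window it overlaps, 20.7 kb downstream, had 62.8 and 27.9 tags in WT and 32.1 and 15.7 in EKO and differed by −1.22 (adjusted p = 0.0191, limma), with deposited values that overlapped.

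Atf3, a stress-induced repressor of inflammatory genes, had no call in 17 tested windows. Its 5′ UTR window had 347 and 226 tags in WT and 638 and 178 in EKO, and after normalization 307 and 303 against 331 and 289 (log2 0.02 ± 0.13, adjusted p = 0.934, limma). The smallest p-value was 15.96 kb upstream, where 51.3 and 43.8 tags in WT and 59.2 and 15.7 in EKO gave a normalised difference of −0.94 ± 0.31 (adjusted p = 0.033, limma), under 2-fold.

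**Figure D3:**
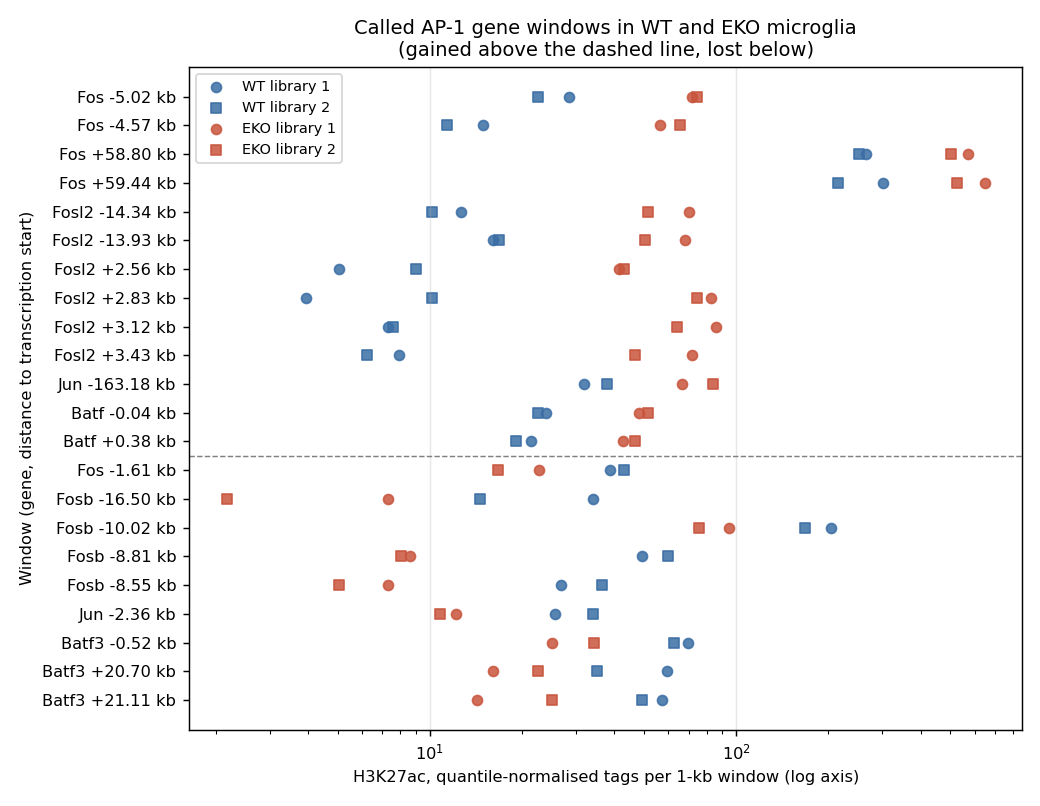
Quantile-normalised H3K27ac tags per 1-kb window (log axis) in the 2 WT (blue) and 2 EKO (red) microglia libraries for the 22 called AP-1 gene windows, named by gene and distance to the start in kb, with gained windows above the dashed line and lost windows below. The genotypes do not overlap on this scale in any of the 22 windows, which follows in part from their having been called.

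With only 2 libraries for each genotype these calls rest on the spread shared across all windows, and an exact permutation test of 2 against 2 cannot go below p = 0.33. Without normalization between libraries 3 windows were called, all gains in Fosl2 intron 1, and 86.4% of calls over all windows were gains against 53.5% after it. Leaving out 1 library leaves a genotype with 1, and limma calls then fell at the AP-1 windows as over all 55285 tested windows. Without WT library 1 or without EKO library 1 no window of either set was called. With edgeR in place of limma, AP-1 windows were still called whichever of the 4 libraries was left out. Each of the 22 windows kept its direction in all 17 settings.

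Markers of other cell types also differed between the genotypes, and their part in the AP-1 results was not tested. Beside the gains, 12 of 22 tested windows of border-macrophage markers were gained (Mrc1, Pf4 and F13a1), with all 5 listed genes tested and summed normalised tags of 328 and 303 in WT against 754 and 806 in EKO. Beside the losses, 8 of 17 oligodendrocyte marker windows (Mbp and Mog) and 14 of 19 astrocyte windows (all at Slc1a3) were lost, with sums of 1141 and 1152 against 492 and 530 and of 1646 and 1413 against 587 and 469. Monocyte markers had 1 gain (Ccr2) and 2 losses (Plac8) in 8 windows and endothelial markers 2 gains and 3 losses in 10. The neuron markers and the T-cell markers had 1 tested window each and no call. Of 112 tested windows of microglia markers, 6 were lost and none gained. In such bulk libraries fewer cells of a type and less signal in each cell cannot be told apart.

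To see which of these genes were acetylated in which brain cells, called H3K27ac regions were summed per gene in the 12 nuclei libraries. Every region that touched the gene body with 5 kb on each side was counted with its whole signal, also where it ran past that interval. Fos and Fosb had their highest signal in NeuN nuclei, and Batf, Batf3 and Atf3 in PU1 nuclei. Compared with PU1 nuclei, NeuN nuclei were higher for 3 members, Fos, Fosb and Fosl1, against 46.5% of all 16251 tested genes, and lower for 4 members, Junb, Batf, Batf3 and Atf3, against 12.9% (adjusted p below 0.05 and fold above 2, limma). Olig2 nuclei were higher than PU1 nuclei for 2 members, Fosl1 and Jund (31.3% of all genes), and lower for 5 members, Fosl2, Junb, Batf, Batf3 and Atf3 (15.3%). NeuN nuclei were higher than Olig2 nuclei for 5 members, Fos, Fosb, Fosl2, Junb and Batf3 (32.1%), and lower for none (15.7%). The 3 comparisons share libraries and are not independent of each other.

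**Figure D4:**
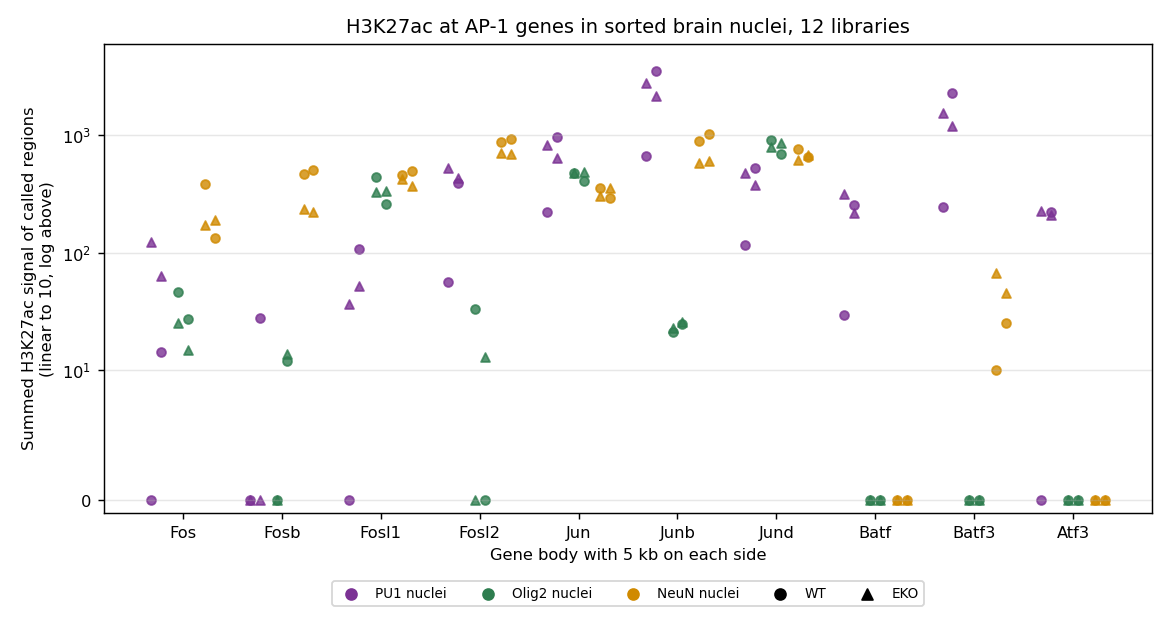
Summed H3K27ac signal of called regions that touch each AP-1 gene with 5 kb on each side, in each of the 12 nuclei libraries. The axis is linear to 10 and logarithmic above, with colours for cell type, circles for WT and triangles for EKO. Batf and Atf3 have signal in PU1 nuclei alone, Fosb is highest in NeuN nuclei, and Junb is highest in PU1 nuclei and lowest in Olig2 nuclei.

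Fos had a summed signal of 381, 133, 174 and 191 in NeuN nuclei, 0, 14.2, 122 and 63.4 in PU1 nuclei and 45.9, 27.2, 25.1 and 14.7 in Olig2 nuclei, each listed as WT 1, WT 2, EKO 1 and EKO 2. Every NeuN library exceeded every other library, by 2.44 ± 0.45 on the log2 scale over PU1 (adjusted p = 0.0013, limma) and by 2.54 ± 0.45 over Olig2 (adjusted p = 0.00131, limma), while PU1 and Olig2 did not differ by the test (adjusted p = 0.942, limma). Fosb had 467, 502, 235 and 223 in NeuN nuclei, against a single value above 0 in PU1 nuclei (27.5, WT 2) and values of 11.9 and 13.7 in 2 Olig2 libraries. It was higher in NeuN nuclei by 4.63 ± 0.48 on the log2 scale than in PU1 (adjusted p = 3.41e-05, limma) and by 4.51 ± 0.48 than in Olig2 (adjusted p = 5.51e-05, limma). Fosl2 was highest in NeuN nuclei (695 to 936), followed by PU1 nuclei (56.4 to 530), which did not differ from NeuN by the test (adjusted p = 0.0741, limma). It was lowest in Olig2 nuclei, where 2 libraries had no region and the others 33.4 and 12.8, a difference from PU1 of −3.99 on the log2 scale (adjusted p = 0.000908, limma). Fosl1 had 368 to 494 in NeuN, 258 to 438 in Olig2 and 0 to 108 in PU1 nuclei, but its interval also holds the genes Ccdc85b and Fibp, so the signal cannot be assigned to Fosl1. On the gene body alone no PU1 or Olig2 library had a called region.

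Jun was present in every library, at 291 to 359 in NeuN, 407 to 490 in Olig2 and 220 to 975 in PU1 nuclei, and none of its cell-type differences passed the test (adjusted p = 0.156 to 0.621, limma). Junb had the highest level of the group, with 662, 3507, 2772 and 2144 in PU1 nuclei, 888, 1019, 586 and 601 in NeuN nuclei and 20.9, 24.5, 22.6 and 25.5 in Olig2 nuclei. NeuN lay below PU1 by the test, with a difference of −1.35 ± 0.50 on the log2 scale (adjusted p = 0.0423, limma), with PU1 WT library 1 inside the NeuN range, and NeuN exceeded Olig2 by 4.51 ± 0.50 (adjusted p = 7.17e-05, limma). Junb ranked at percentile 98.0 of the 12903 genes with a region in PU1 nuclei and at 22.0 of the 13637 with one in Olig2 nuclei. Jund was acetylated in all 3 cell types, at 688 to 917 in Olig2, 620 to 771 in NeuN and 117 to 527 in PU1 nuclei. Olig2 exceeded PU1 by 1.28 ± 0.47 (adjusted p = 0.0486, limma) and NeuN did not differ from either by the test. The Junb and Jund intervals also hold Prdx2 and Iqcn.

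Batf3 had 246, 2286, 1536 and 1204 in PU1 nuclei, 10.0, 25.1, 67.7 and 45.6 in NeuN nuclei and no region in Olig2 nuclei. Of the last 3 PU1 values, 2133, 1444 and 1148 came from 1 region each that ran past the 5 kb flank downstream. NeuN lay below PU1, with a difference of −4.62 on the log2 scale (adjusted p = 0.00017, limma) and no overlap. Batf had 29.5, 253, 315 and 219 in PU1 nuclei and Atf3 0, 223, 226 and 211, and both were listed at 0 in all 8 other libraries, so no fold is given (adjusted p for lower signal in NeuN = 0.000115 and 0.00513, limma). Among genes with a region in PU1 nuclei Batf3 ranked at percentile 95.3 and Jun at 89.5, whereas Fos, at 42.5, and Fosb, at 11.5, ranked low. Whole microglia differed from PU1 nuclei at the Fosb promoter window, with 318 and 168 tags in the WT microglia libraries. No PU1 library had a region there and every NeuN library did, and the reason was not tested.

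These comparisons depend on how the libraries are scaled: quantile normalization moved the median difference of all genes from 1.19 to −0.19 for NeuN against PU1, from 0.48 to −0.15 for Olig2 against PU1 and from 0.51 to −0.10 for NeuN against Olig2. The count of genes higher and lower in NeuN than PU1 then went from 7563 and 2095 to 4717 and 4819, in Olig2 than PU1 from 5087 and 2486 to 4288 and 4110, and in NeuN than Olig2 from 5218 and 2552 to 4273 and 4330. Under that scaling Jun was also lower in NeuN (−1.77) and in Olig2 (−1.01) than in PU1 nuclei, and neither the Jund difference between Olig2 and PU1 (0.42) nor the Batf3 difference between NeuN and Olig2 (0.97) was called. With 1 of the 12 libraries left out in turn, the Jund call was lost in 11 fits (adjusted p up to 0.139, limma), all but the one without PU1 WT library 2. The lower Junb signal in NeuN than in PU1 was likewise lost in 11 fits (adjusted p up to 0.109, limma), all but the one without PU1 WT library 1, and the higher Batf3 signal in NeuN than in Olig2 in 7 fits (adjusted p up to 0.0838, limma). Without PU1 WT library 2 the NeuN minus PU1 difference was 2.17 at Fosl2, 1.55 at Jund and −0.75 at Junb. The median of all genes rose with it, from 1.19 to 1.69. Without PU1 WT library 1 the difference was −1.34 at Jun, beside a median of 0.70 over all genes.

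Between genotypes no member passed the test within any cell type, against 3.02% of all genes in PU1, 0.0923% in NeuN and 0% in Olig2 nuclei. Fos in PU1 nuclei came nearest. Its 2 EKO libraries, at 122 and 63.4, lay above the WT libraries at 0 and 14.2 (log2 2.66 ± 0.63, unadjusted p = 0.00243, adjusted p = 0.0685, limma). It was called after quantile normalization (1.93, adjusted p = 0.046, limma), a scaling that moved the median of all genes from 0.62 to −0.26 and the genes called higher and lower from 462 and 28 to 886 and 712. In NeuN nuclei both EKO libraries lay below both WT libraries at Fosb, Fosl1, Fosl2 and Junb, and above them at Batf3. The log2 differences were −1.05, −0.26, −0.36, −0.67 and 1.31, and none was called (limma). The share of all genes that separate in this way was not counted. In PU1 nuclei the shallow WT library stands alone without PU1 WT library 2. The log2 differences of the members then ran from 0 at Fosb to 4.51 at Atf3, beside a median of 1.70 over all genes. Without PU1 WT library 1 they ran from −1.91 at Fosb to 2.03 at Fos, beside a median of −0.06. The PU1 comparison of genotypes thus rests on that pair of WT libraries.

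The windows called in whole microglia were then looked up in the nuclei, an independent set of libraries. Of the 13 gained windows, 11 were overlapped by a called H3K27ac region in each PU1 EKO library, against 3 and 8 in the PU1 WT libraries, 2 in each Olig2 library and 0 to 3 in NeuN libraries. These 11 are 84.6%, where regions of the PU1 EKO libraries overlapped 96.0 and 93.1% of all gained windows and those of the PU1 WT libraries 12.6 and 64.4%. In NeuN and Olig2 libraries 21.5 to 28.0% of all gained windows were overlapped. Of all tested windows, 87.5 and 84.1% were overlapped in the PU1 EKO libraries and 46.8 and 86.7% in the PU1 WT libraries. The share of 84.6% was thus near that of all tested windows in PU1 EKO nuclei. In NeuN and Olig2 libraries 41.3 to 47.6% of all tested windows were overlapped. The Fosl2 intron window 2.83 kb from the start was covered over all 1001 positions in both PU1 EKO libraries and over 0 and 422 positions in the WT libraries. At 3.43 kb the covered length was 588 and 609 bases in EKO and 0 in both WT libraries. The Fos window 4.57 kb upstream was covered over 844 and 631 bases in EKO and 0 in both WT libraries, and the Fos window 58.8 kb downstream over 1001 in both EKO libraries and 244 and 533 in WT, and it was also covered in all 4 Olig2 libraries. The Batf promoter window was covered in 1 library of each genotype (427 bases in WT 2 and 698 in EKO 1). As PU1 WT library 1 had the fewest regions, the WT count of 8 from library 2 is the nearer comparison.

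Of the 9 lost windows, 5 or 6 were overlapped by a region in each NeuN library, 1 or 2 in each Olig2 library, 1 and 4 in the PU1 WT libraries and 4 in each PU1 EKO library. Of all lost windows, 29.3 to 33.3% were overlapped in NeuN libraries, 25.0 to 27.5% in Olig2 libraries, 56.1 and 92.4% in the PU1 WT libraries and 62.4 and 59.0% in the PU1 EKO libraries. The NeuN libraries overlapped 43.8 to 47.6% of all tested windows, against 55.6 or 66.7% of the 9 lost ones. All 4 Fosb windows lay in NeuN regions, 3 of them in all 4 NeuN libraries and the one 8.56 kb upstream in 2, and none lay in a PU1 or Olig2 region. The summed signal of the neuron markers was 0 to 80.8 in PU1 nuclei and 22593 to 28654 in NeuN nuclei, and in whole microglia those markers had 1 tested window. The part of neuronal chromatin in the Fosb windows of whole microglia was not tested. Border-macrophage markers summed to 0 and 248 in PU1 WT and 2988 and 2324 in PU1 EKO nuclei, beside the gained windows, and their part was not tested either.

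**Figure D5:**
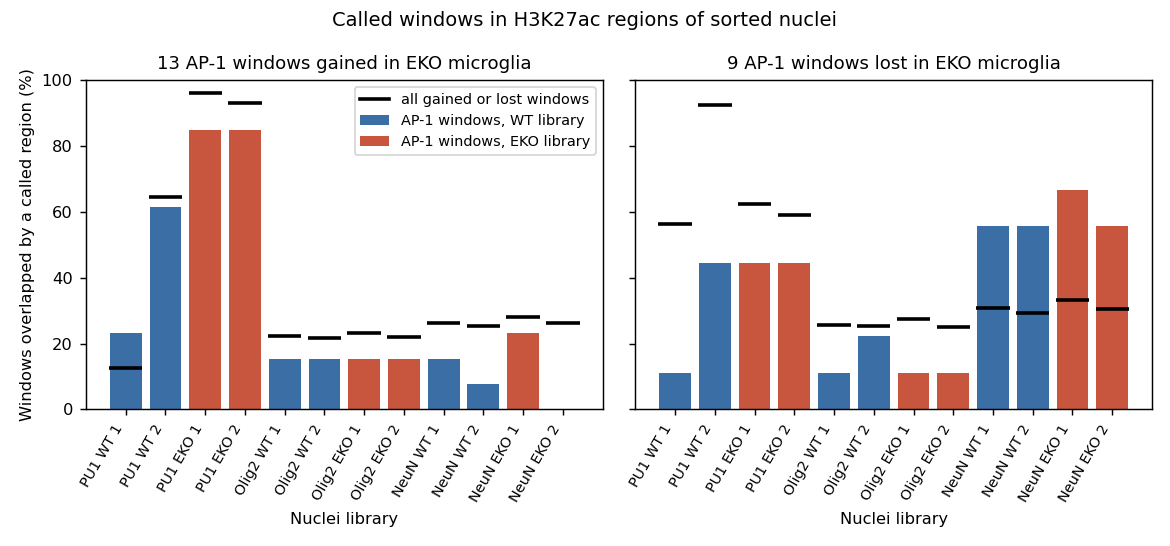
Percent of the AP-1 gene windows gained (left, 13 windows) or lost (right, 9 windows) in EKO microglia that are overlapped by a called H3K27ac region in each nuclei library, with bars in blue for WT and red for EKO libraries and black lines for the percent of all gained or lost windows. Gained AP-1 windows are covered most in the PU1 EKO libraries (84.6% each, below the lines at 96.0 and 93.1%), and lost AP-1 windows most in the NeuN libraries (55.6 or 66.7%, above lines at 29.3 to 33.3%).

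Lastly, the peaks of SALL1, SMAD4 and p300 were placed on the AP-1 windows with a minimum overlap of 1 bp. SALL1 peaks of WT mice overlapped 46 windows (16.5%), against 13.7% of all windows, and p300 peaks 47 windows (16.9%), against 9.64%. Acetylated windows hold more peaks, and among tested windows the shares were 25.7% against 26.5% for SALL1 and 29.9% against 20.6% for p300. WT SMAD4 peaks overlapped 17 windows (6.12% against 4.89%) and those labelled mutant 12 windows (4.32% against 3.03%). None of the 7 SALL1 peaks of EKO mice fell on an AP-1 window, while PWK peaks fell on 6 windows (2.16% against 3.42%) and Spret peaks on 11 windows (3.96% against 2.20%).

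WT SALL1 peaks were found at 6 of the 10 genes by nearest window: Jun (13 windows), Atf3 (9 windows), Fos, Fosl2 and Batf3 (7 windows each) and Batf (3 windows). Fosb, Fosl1, Junb and Jund had no SALL1 peak in any list. The WT lists used here held 15410 SALL1 and 4024 SMAD4 peaks. The paper describes longer WT lists of both factors, so that absences and shares refer to the lists used here alone. Within 5 kb of the gene bodies, 4 members held a SALL1 peak, where 23.4% of all genes did. SMAD4 and p300 were at different members: Junb, with no SALL1 peak, had 3 WT SMAD4 peaks of scores 67, 93 and 87, higher than 74.4 to 86.6% of that list, and 3 p300 peaks of scores 213, 148 and 177. The mutant SMAD4 list had no peak at Junb, but it was shorter, with 2333 peaks. It held a peak at 7.25% of all genes, against 10.9% for the WT SMAD4 list. Jund held a p300 peak of score 413, higher than 99.9% of the list. Jun had the most p300 peaks (11), 1 SMAD4 peak at its promoter and none of SALL1 there.

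Peaks were unevenly placed between gained and lost windows, which was not tested. Of 13 gained windows 7 overlapped a WT SALL1 peak, against 23.1% of all gained windows, and of 9 lost windows 0 did, against 28.1% of all lost windows. The 7 windows belong to 4 elements, at Fos 5 kb upstream and 59 kb downstream, Fosl2 14 kb upstream and Jun 163 kb upstream. The Fosl2 intron and the Batf promoter had no peak. Of the same 13 windows, 4 overlapped p300 (7.96% of all gained windows) and 2 overlapped WT SMAD4 (2.90%), and of the 9 lost windows 2 overlapped p300 (20.2%) and 0 SMAD4 (13.2%). The Fos element 59 kb downstream held peaks of all 3 factors: its SALL1 peak, printed above, had a score of 117 (higher than 86.7% of the list), its p300 peak 185 (91.7%), its WT SMAD4 peak 52 (60.4%), the mutant SMAD4 peak 117 (84.0%) and a Spret SALL1 peak of score 22. The Fos element 18.8 kb upstream had SMAD4 peaks in both lists and no SALL1 peak, and its 3 windows differed by −0.66 to −0.72 on the log2 scale, under 2-fold (adjusted p = 0.000971 to 0.00178, limma). The AP-1 word was in 1 of the 13 gained windows (31.5% of all gained windows) and in 1 of the 9 lost windows (27.6%).

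Other genes of the pathway were counted over lists of gene names. Windows of AP-1 partners, the MAF, BACH, NRF and JDP proteins among them, had 10 gains and 9 losses in 160 tested (median −0.05), with gains at Bach2, Jdp2, Maf and Nfe2l2 and losses at Bach2. Those are 6.25 and 5.62% of its windows, against 8.68 and 7.56% of all tested windows. Windows of the upstream kinases and of SRF and its ternary complex factors had 4 gains, at Map3k1, and 4 losses in 82 (median −0.05, 4.88% each). Other immediate early genes had 8 gains, at Dusp1, Ier3, Klf2, Nr4a2 and Nr4a3, and 2 losses, at Btg2 and Nr4a1, in 147 (median −0.05, 5.44 and 1.36%). Well-known AP-1 targets had 11 gains, at Ccl2, Ccnd1, Plau and Plaur, and 3 losses, at Cd44, in 72 (median 0.33, 15.3% gained and 4.17% lost). In the nuclei, 9 of 17 other immediate early genes and 9 of 15 upstream genes were higher in NeuN than in PU1 nuclei, with 1 and 0 lower, beside 46.5% of all genes higher and 12.9% lower. Of 12 targets 7 were lower and 3 higher, and of 13 partners 6 were lower and 5 higher. In PU1 nuclei EKO exceeded WT at 1 partner, Batf2, and 1 target, Cd44, against 2.84% of all genes.

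As a description over the 12 nuclei libraries, the gene most like each member in log2 signal was Mdk for Fosb (Pearson's r = 0.99), Egr1, another activity-induced gene, for Fosl2 (0.99), Pfkfb3 for Jun (0.99), Moap1 and, tied with it, Tmem251 for Fos (0.97), and Itgb2, a leukocyte integrin, for Batf3 (1.00). Dupd1 was most like Junb (1.00) and Sf3b4 most like Jund (1.00). The libraries share cell type and depth, and Fosl1 shares its regions with its nearest match, Ccdc85b. Batf and Atf3 had a region in fewer than 6 libraries and were not matched.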

How the data were processed

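H3K27ac was compared in 4 microglia libraries and 12 nuclei libraries, and 7 merged peak lists (SALL1, SMAD4 and p300) were placed on the same genes. The authors mapped reads to mm10 with Bowtie2, made tag directories with HOMER and merged peaks that were reproducible between replicates, and the submitters' processing notes also name DESeq2. The deposited microglia table holds a signal for each 1-kb window on open chromatin, in tags that the authors brought to a common depth of 10000000, from which whole tags were recovered (100% of values within 0.05 of a whole number). The deposited nuclei lists hold a normalised tag signal for each region called per library, and the deposited peak lists hold a score per peak. The lists also give, as deposited by the authors, each region's fold enrichment over input, which entered no comparison.

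Windows with a mean above 16 were quantile-normalised, put on the log2(value + 1) scale and compared with the limma package (3.58.1, under R 4.3.3), letting the variance follow the mean, with calls at a Benjamini-Hochberg adjusted p below 0.05 over all tested windows and a fold above 2. Summed nuclei signal was tested as log2(value + 10) over genes with a region in at least 2 libraries, in 1 limma fit of 6 groups and with the same thresholds. The log2 folds understate change at low values. The gene models and promoters are of RefSeq GRCm38.p6. Alternatives used edgeR 4.0.16, DESeq2 1.42.0 and other filters, pseudocounts, scalings, measures and overlaps. The covered length, in kb, was given a pseudocount of 1. Both fits were tested on simulated data. Each member is given by its window nearest to the start, its called windows (the 4 with the smallest p where there are more) and, with none called, the window with the smallest p. The Fos window that lost signal and the Fos element upstream with SMAD4 peaks were chosen after their values were seen. The members and gene lists were chosen with earlier results of these data known. Depth limits precision, and counting error alone understates it: replicate counts varied by 3.21 (WT) and 2.90 (EKO) times the chi-square expectation per degree of freedom.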

Additional observations from a re-analysis of the deposited data

Results flagged for a closer look

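The genotype difference of Fosl2 had opposite directions in PU1 and NeuN nuclei. Both EKO libraries lay above both WT libraries in PU1 nuclei (56.4 and 389 in WT, 530 and 429 in EKO) and below them in NeuN nuclei (871 and 936 in WT, 709 and 695 in EKO). The difference between the genotype effects was 1.94 ± 1.32 on the log2 scale and did not pass the test (adjusted p = 0.761, limma interaction).

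Fos likewise had opposite directions in PU1 nuclei (0 and 14.2 in WT, 122 and 63.4 in EKO) and Olig2 nuclei (45.9 and 27.2 in WT, 25.1 and 14.7 in EKO). The difference between the effects was 3.29 ± 0.89 and did not pass the test (adjusted p = 0.215, limma interaction).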

How the results depend on the processing

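In microglia 22 windows were called, 13 gained and 9 lost. On the values as deposited 3 were called, 3 gained and 0 lost. The lost windows numbered 5 with DESeq2, 5 without a filter and 5 with a pseudocount of 8. With each replicate left out in turn, 0 to 8 windows were called by limma (0 to 6 gained, 0 to 2 lost) and 12 to 20 by edgeR (10 to 12 gained, 2 to 9 lost), the latter chosen after seeing the data. In each such fit the lone library was assumed to vary like the others. Over the nuclei, 19 differences between cell types were called in all, and 16 to 20 with a replicate left out. Leaving out PU1 WT library 2 raised the median NeuN minus PU1 difference of all genes from 1.19 to 1.69, and leaving out PU1 WT library 1 lowered it to 0.70. Members higher in Olig2 than PU1 numbered 2. That count was 1 with a pseudocount of 1, with the gene body alone and with quantile normalization. Between genotypes in PU1 nuclei 1 member was called with quantile normalization. Leaving out PU1 WT library 2 moved the median log2 difference of all genes from 0.62 to 1.70, and leaving out PU1 WT library 1 moved it to −0.06.

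The replicate numbers gave no sign of pairing (r = 0.036 between deviations in microglia, −0.227 in PU1, −0.00476 in Olig2 and 0.117 in NeuN nuclei). With the replicate number as a block 22 windows and 17 nuclei differences were called, with 1 member higher in Olig2 than PU1. With the PU1 numbers crossed, a pairing chosen after seeing the data, 18 differences were called and that count was again 1.

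Of peaks within 5 kb, the gene body alone kept 1 member gene for SALL1 in WT, 0 for SMAD4 in WT, 0 for mutant SMAD4, 0 for Spret and 3 for p300. The higher-scoring peaks of each list, from the median score up, left 0 member genes for mutant SMAD4 and 0 for Spret, and 6 windows for mutant SMAD4, 2 for PWK and 4 for Spret. No value changed direction in a call, and the other 213 summary counts stayed within 1.5 times. The cause of these shifts was not tested. The limits are 2 libraries for each group, 1 EKO library with raised tags throughout, 1 shallow PU1 library, and peak lists without replicate values.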

Other observations

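The open-chromatin list from which a window came was inferred from the window names. Of the 278 AP-1 gene windows, 218 were in the lists of both genotypes (78.4%, against 69.5% of all windows), 34 in the WT list alone (12.2% against 21.8%) and 26 in the EKO list alone (9.35% against 8.75%). Gains were called in 5 of 15 tested EKO-only windows, against 31.5% of all such windows, in 1 of 12 WT-only windows (2.61%) and in 7 of 117 shared windows (7.63%). Losses were called in 0 of the EKO-only windows (1.51%), 2 of the WT-only windows (18.4%) and 7 of the shared windows (6.74%). The 5 gained EKO-only windows were all at Fosl2, which had 6 gained windows.

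SALL1 peaks in the wild-derived strains were at few of these genes. PWK peaks overlapped 2 Fos windows, 3 Jun windows and 1 Batf3 window, and Spret peaks 4 Fos, 2 Jun, 2 Batf and 3 Atf3 windows. The lists of these strains were shorter, with 3627 and 2245 peaks against 15410 in the WT list of the strain labelled C57/Bl6.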
